A study of Mus musculus with 8 samples.

Results

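The acute phase proteins examined here were 10 genes chosen by name, namely the serum amyloid A genes Saa1, Saa2, Saa3 and Saa4, the orosomucoid genes Orm1 and Orm2, haptoglobin (Hp), hemopexin (Hpx), lipocalin 2 (Lcn2) and serum amyloid P component (Apcs). All 10 were found by symbol among the 55487 genes counted, and all 10 were among the 13400 genes abundant enough to be tested. Their RNA was counted by sequencing of liver RNA from 4 Control and 4 Mc1r LKO mice, all male. Control mice carried floxed Mc1r on both chromosomes (Mc1r fl/fl). Mc1r LKO mice came from crossing Mc1r fl/fl mice with mice that carry an Alb Cre/+ transgene, in which the albumin promoter drives Cre in hepatocytes, a design that removes the melanocortin 1 receptor from these cells. Mice of both groups ate a cholesterol-rich Western diet for 12 weeks from 8 weeks of age and were fasted for 4 hours before collection. Whether the controls carried the Cre transgene is not stated beyond their floxed genotype, and each library is 1 mouse.

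The acute phase response is the change in blood proteins that follows infection, injury or tissue inflammation. Cytokines, above all interleukin 6 and interleukin 1, reach the hepatocyte, where STAT3, NF-kB and the C/EBP factors raise transcription of the positive acute phase genes, while secretion of albumin, transthyretin and other negative acute phase proteins falls. The products work in different ways. Serum amyloid A proteins travel on high density lipoprotein, orosomucoids bind drugs and small lipophilic molecules, haptoglobin captures free hemoglobin, hemopexin captures free heme, lipocalin 2 withholds iron from bacteria by binding their siderophores, and serum amyloid P component is a pentraxin, the main acute phase pentraxin of the mouse.

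The total count was between 10773151 and 24763375 per mouse, and Control mouse 159 had the lowest. Mc1r itself had 0 counts in all 8 livers, so the deletion could not be checked from its RNA, and a count of 0 allows up to 0.278 CPM (counts per 1000000 counts of the mouse) at the lowest depth. Control mouse 159 also stood apart from the other mice on the second principal component of all tested genes, which held 16.9% of the variance (score 40.5, against -22.0 to 8.40 in the other mice), and Mc1r LKO mouse 182 stood apart on the first (37.6% of the variance, score 59.3 against -28.2 to 27.8). Beside the results that follow, values are given without mouse 159 or another mouse where leaving it out changed them most.

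The genes lie in 6 places of the GRCm38 genome. Saa3 (chr7:46711998-46715700), Saa4 (chr7:46727998-46732603), Saa1 (chr7:46740497-46742980) and Saa2 (chr7:46751790-46754313) form 1 cluster on chromosome 7, with Saa2 on the plus strand and the others on the minus strand. Orm1 (chr4:63344560-63348163) and Orm2 (chr4:63362449-63365878) are neighbors on the plus strand of chromosome 4. Hp (chr8:109575128-109579172), Hpx (chr7:105591613-105600137), Lcn2 (chr2:32384633-32388252) and Apcs (chr1:172893961-172895041) are on minus strands. The protein-coding transcripts of Saa1 and Saa2 were 94.4% identical over 606 aligned bases and those of Orm1 and Orm2 91.0% over 775 bases, whereas Saa1 and Saa3 were 69.7% identical. Of all 50-base windows of the Saa1 transcript, 14.8% also occurred in a transcript of another gene, as did 13.3% of those of Saa2, 20.4% of those of Orm1 and 22.7% of those of Orm2. Reads from shared sequence may not be assigned with certainty among Saa1 and Saa2, or among Orm1, Orm2 and Orm3. How far this changed their counts was not measured. For Hp, Hpx, Lcn2 and Apcs no window was shared.

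The bases upstream of the transcription start are shown for Saa1, Saa2, Saa3 and Orm2, whose levels varied together between mice, and for Apcs, whose level followed theirs least closely apart from Saa4. Sequences are from RefSeq (GRCm38.p6), which gave a promoter window for 8 of the 10 genes (not for Orm1 and Hp), and are written 5′ to 3′ on the strand of the gene. Each ends at the base before the RefSeq start or, for Saa2 and Saa3, at the base before the gene model of the count tables. They are chr7.0:46742981-46743230 (minus strand), chr7.0:46751583-46751789 (plus strand), chr7.0:46715701-46715926 (minus strand), chr4.0:63362199-63362448 (plus strand) and chr1.0:172895055-172895304 (minus strand). Capitals mark matches, on either strand, to a C/EBP motif (TTGCNNAA), a STAT motif (TTCNNNGAA), an NF-kB motif (GGNNNTTCC), a glucocorticoid receptor motif (ACANNNTGT) or a TATA box (TATAAA), and no marked matches overlap.
Saa1: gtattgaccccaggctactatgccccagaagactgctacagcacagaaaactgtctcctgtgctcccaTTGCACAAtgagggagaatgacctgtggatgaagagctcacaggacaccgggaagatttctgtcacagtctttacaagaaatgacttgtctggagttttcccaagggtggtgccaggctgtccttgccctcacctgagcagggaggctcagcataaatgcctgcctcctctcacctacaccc
Saa2: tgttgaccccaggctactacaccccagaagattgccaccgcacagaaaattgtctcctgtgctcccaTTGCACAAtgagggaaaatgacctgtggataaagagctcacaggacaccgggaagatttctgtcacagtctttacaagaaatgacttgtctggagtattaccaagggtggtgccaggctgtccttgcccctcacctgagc
Saa3: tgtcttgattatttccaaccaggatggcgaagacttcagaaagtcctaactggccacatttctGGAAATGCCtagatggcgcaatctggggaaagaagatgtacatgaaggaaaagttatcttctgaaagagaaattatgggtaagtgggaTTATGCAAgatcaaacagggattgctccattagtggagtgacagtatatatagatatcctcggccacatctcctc
Orm2: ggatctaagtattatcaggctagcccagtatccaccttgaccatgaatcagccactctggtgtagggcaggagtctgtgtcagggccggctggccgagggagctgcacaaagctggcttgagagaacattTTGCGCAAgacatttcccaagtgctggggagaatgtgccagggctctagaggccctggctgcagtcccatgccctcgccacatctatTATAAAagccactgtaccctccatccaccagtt
Apcs: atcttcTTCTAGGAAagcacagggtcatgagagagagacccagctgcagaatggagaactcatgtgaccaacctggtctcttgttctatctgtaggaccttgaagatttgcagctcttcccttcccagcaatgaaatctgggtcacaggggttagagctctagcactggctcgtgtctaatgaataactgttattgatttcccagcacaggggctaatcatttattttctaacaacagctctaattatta

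In the 250 bases before the RefSeq start, Saa1 and Saa2 were 95.6% identical and both held the same 8 letters of the C/EBP motif, TTGCACAA, from position -182 in Saa1 and -183 in Saa2. A C/EBP match was present in 7 of the 8 windows, the exception being Apcs, and in 9.56% of all 32851 windows of this length in the table. The other motifs matched 1 of the 8 windows each. These were STAT in Apcs (7.02% of all windows), NF-kB in Saa3 (15.7%), the glucocorticoid receptor motif in Lcn2 (5.84%) and the TATA box letters in Orm2 (12.4%), and the Lcn2 window lies inside the gene model of the count tables and is not shown. Matches are descriptions of letters, and binding was not measured.

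Between the genotypes, none of the 10 genes passed an adjusted p-value of 0.05 in edgeR's quasi-likelihood test (Benjamini-Hochberg adjustment over 13400 genes). Across all tested genes 0% passed it as well. When an unadjusted p-value below 0.05 and a log2 fold change beyond 0.25 in either direction were required, the count was 0 of 10, against 5.31% of all tested genes (711 genes), and in none of the 10 were the groups apart, against 4.16% of all tested genes. DESeq2 called 0 of the 10 and 17 of all genes at an adjusted p-value under 0.05. The median log2 fold change (Mc1r LKO minus Control) of the 10 genes was -0.15, beside -0.01 over all tested genes, with 3 genes above 0 (47.9% of all tested genes) and 7 below. Without mouse 159 the median was 0.15, beside -0.0032 over all tested genes, with 9 of 10 above 0 (49.5% of all tested genes), so the direction of the median rested on that mouse. None passed the adjusted threshold without it either (0% of all genes), and 1 of 10, Apcs, passed the unadjusted threshold with the fold limit, against 5.65% of all genes. The coefficient of variation was larger in Control than in Mc1r LKO mice for 9 of 10 genes, all but Saa4, against 47.9% of all tested genes. Without mouse 159 it was larger for 8 of 10, against 39.4%, with Orm1 at 1.83% in Control and 5.19% in Mc1r LKO mice. This difference in scatter was not tested.

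**Figure D1:**
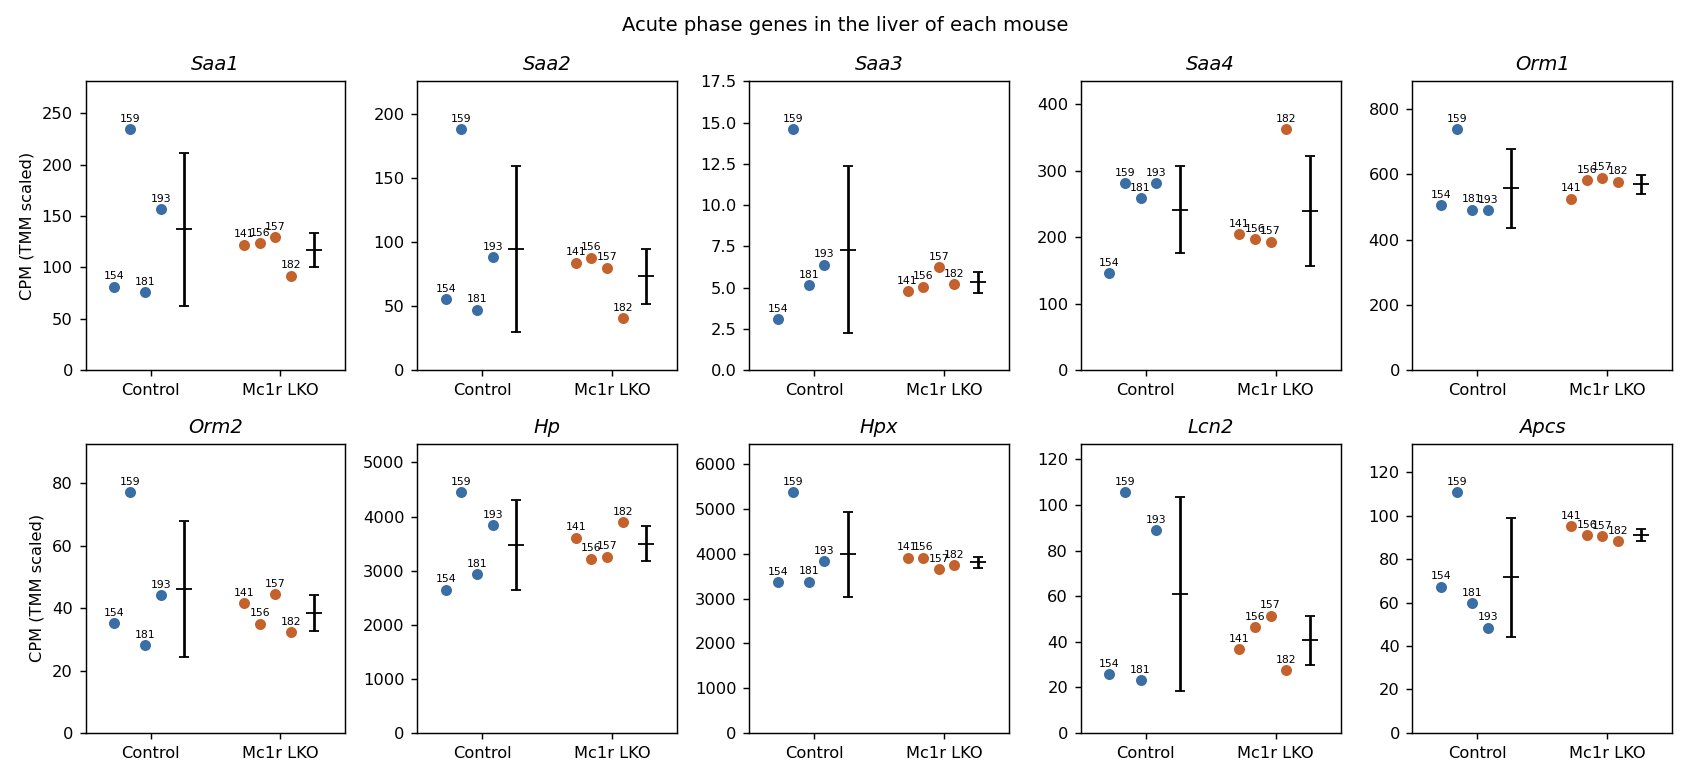
Level of each of the 10 acute phase genes (vertical axis, TMM-scaled CPM, from 0) in 4 Control and 4 Mc1r LKO mice. Points are mice, labeled by number, and the black bars give the mean and SD of each group. Mouse 159 is the highest of all 8 mice for every gene but Saa4, whose highest value is 362 CPM in mouse 182.

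Saa1 and Saa2 encode the acute phase serum amyloid A proteins of the liver. The Saa1 level was 81.3, 234, 76.3 and 157 CPM in Control mice 154, 159, 181 and 193, and 122, 124, 130 and 92.0 CPM in Mc1r LKO mice 141, 156, 157 and 182. Controls lay both below and above all Mc1r LKO mice, with mice 154 and 181 lowest and mice 159 and 193 highest. The means were 137 ± 74.5 and 117 ± 16.9 CPM (SD, n = 4 each), and the log2 fold change was -0.23 (SE 0.32, 95% interval -0.94 to 0.48, edgeR adjusted p = 0.926). Saa2 was at 55.4, 188, 47.3 and 88.3 CPM in the same Controls and at 83.9, 87.9, 80.0 and 40.8 CPM in the Mc1r LKO mice. Mouse 159 was again far above every other mouse, and the lowest value was that of Mc1r LKO mouse 182. The Saa2 log2 fold change was -0.37 (SE 0.41, interval -1.27 to 0.54, edgeR adjusted p = 0.907). Without mouse 159 it was 0.20 for Saa2 and 0.17 for Saa1, with intervals from -0.44 to 0.85 and from -0.39 to 0.72. Without Mc1r LKO mouse 182 it was -0.16 for Saa2 and -0.12 for Saa1, and without Control mouse 181 it was -0.59 and -0.43.

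Saa3, which in the mouse is made largely outside hepatocytes, by macrophages and adipocytes among others, was the least abundant member. It was at 3.08, 14.6, 5.16 and 6.40 CPM in Controls 154, 159, 181 and 193 and at 4.77, 5.07, 6.26 and 5.21 CPM in Mc1r LKO mice 141, 156, 157 and 182, from 58 to 157 counts per mouse. The Mc1r LKO mice lay within the range of the Controls, and mouse 159 had 2.99 times the mean of the other 3 Controls. The log2 fold change was -0.42 (SE 0.39, interval -1.30 to 0.45, edgeR adjusted p = 0.894), 0.13 without mouse 159 and -0.68 without mouse 154. Saa4, the serum amyloid A gene that the liver expresses constitutively, behaved differently. It was at 146, 281, 258 and 281 CPM in the Controls and at 204, 198, 193 and 362 CPM in the Mc1r LKO mice. Mouse 182 was the highest and mouse 154 the lowest of the 8, and mouse 159 was level with mouse 193. The means were 241 ± 64.8 and 239 ± 82.0 CPM, with a log2 fold change of -0.01 (SE 0.25, interval -0.57 to 0.55, edgeR adjusted p = 0.996), which was -0.28 without mouse 182, -0.19 without mouse 154 and between 0.02 and 0.09 without any other mouse.

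The orosomucoids encode alpha-1-acid glycoproteins. Orm1 was at 507, 738, 492 and 490.0 CPM in Controls 154, 159, 181 and 193 and at 525, 583, 590 and 578 CPM in Mc1r LKO mice 141, 156, 157 and 182. Outside mouse 159, the other 3 Controls differed by little (coefficient of variation 1.83%) and all lay below the 4 Mc1r LKO mice. With all mice the Orm1 log2 fold change was 0.03 (SE 0.14, interval -0.28 to 0.34, edgeR adjusted p = 0.983), and slightly below 0 under scaling by library size alone (-0.0094) and without mouse 154, 181 or 193 (to -0.021). Without mouse 159 it was 0.21 (SE 0.09, interval 0.01 to 0.40, unadjusted p = 0.0445, adjusted p = 0.731 in edgeR). Orm2, at 35.1, 77.3, 28.0 and 44.3 CPM in Controls and 41.6, 35.0, 44.6 and 32.3 CPM in Mc1r LKO mice, had the same high mouse. Its other 7 values lay between 28.0 and 44.6 CPM with the genotypes interleaved. The Orm2 log2 fold change was -0.26 (SE 0.27, interval -0.86 to 0.34, edgeR adjusted p = 0.907), 0.11 without mouse 159 and -0.43 without mouse 181.

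Hp and Hpx were the most abundant of the 10 genes and, with Orm1, had the smallest coefficients of variation among Controls (21.7% to 23.9%). Hp was at 2649, 4455, 2932 and 3837 CPM in Controls 154, 159, 181 and 193 and at 3610, 3224, 3261 and 3903 CPM in Mc1r LKO mice 141, 156, 157 and 182. The 4 Mc1r LKO values lay inside the Control range. The log2 fold change was 0.01 (SE 0.17, interval -0.35 to 0.38, edgeR adjusted p = 0.993), with the sign changing under scaling by library size alone (-0.03) and without mouse 154 (-0.09), 181 (-0.06) or 182 (-0.04). Hpx was at 3375, 5381, 3377 and 3832 CPM in the Controls and at 3917, 3915, 3649 and 3747 CPM in the Mc1r LKO mice. Apart from mouse 159, all mice were between 3375 and 3917 CPM, and the coefficient of variation among Mc1r LKO mice was 3.46%. The Hpx log2 fold change was -0.07 (SE 0.15, interval -0.41 to 0.27, edgeR adjusted p = 0.960), and 0.12 without mouse 159 (interval -0.11 to 0.35).

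Lcn2 had the largest coefficient of variation among Controls, 69.9%. It was at 25.9, 106, 23.1 and 89.0 CPM in Controls 154, 159, 181 and 193 and at 36.8, 46.5, 51.5 and 27.6 CPM in Mc1r LKO mice 141, 156, 157 and 182. The Controls formed a low pair (154 and 181) and a high pair (159 and 193), and the Mc1r LKO mice lay between the pairs. The means were 60.9 ± 42.6 and 40.6 ± 10.6 CPM, with a log2 fold change of -0.58 (SE 0.46, interval -1.60 to 0.44, edgeR adjusted p = 0.869), -0.18 without mouse 159 and -0.32 without mouse 193. Lcn2 is also a granule protein of neutrophils. Of 12 neutrophil markers, 9 were too low to be tested, among them Ly6g at 0 to 2 counts, Mpo at 0 to 2, Camp at 0 to 4, Elane at 0 to 9 and Retnlg at 0 to 27 in any mouse. The other 3 were detected in every mouse, Csf3r at 38 to 99 counts, S100a9 at 12 to 103 and S100a8 at 8 to 39. Csf3r was highest in mouse 159, at 9.20 CPM against 2.35 to 3.67 CPM in the other mice. The other Controls also lay above all Mc1r LKO mice for Csf3r, and groups do not overlap in 4.16% of all tested genes. Between the genotypes the log2 fold change was -0.77 for Csf3r, but 0.53 for S100a8 and 0.39 for S100a9. The part of neutrophils in the Lcn2 level was not tested.

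Apcs was the only member with a positive log2 fold change above 0.25. It was at 67.4, 111, 59.6 and 48.5 CPM in Controls 154, 159, 181 and 193 and at 95.2, 91.0, 90.6 and 88.4 CPM in Mc1r LKO mice 141, 156, 157 and 182. Mouse 159 lay above, and the other 3 Controls below, all 4 Mc1r LKO mice. The means were 71.6 ± 27.4 and 91.3 ± 2.84 CPM. With all mice the log2 fold change was 0.35 (SE 0.21, interval -0.12 to 0.83, unadjusted p = 0.124, adjusted p = 0.820 in edgeR, two-sided exact permutation p = 0.143). Without mouse 159 it was 0.65 (SE 0.12, interval 0.39 to 0.91, unadjusted p = 0.00031, adjusted p = 0.499 in edgeR). Without Control mouse 193, the lowest of the 8, it was 0.21 (unadjusted p = 0.285 in edgeR). For the 10 genes the two-sided exact permutation p-values were between 0.143 and 0.943, in a design where the smallest possible is 0.0286.

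**Figure D2:**
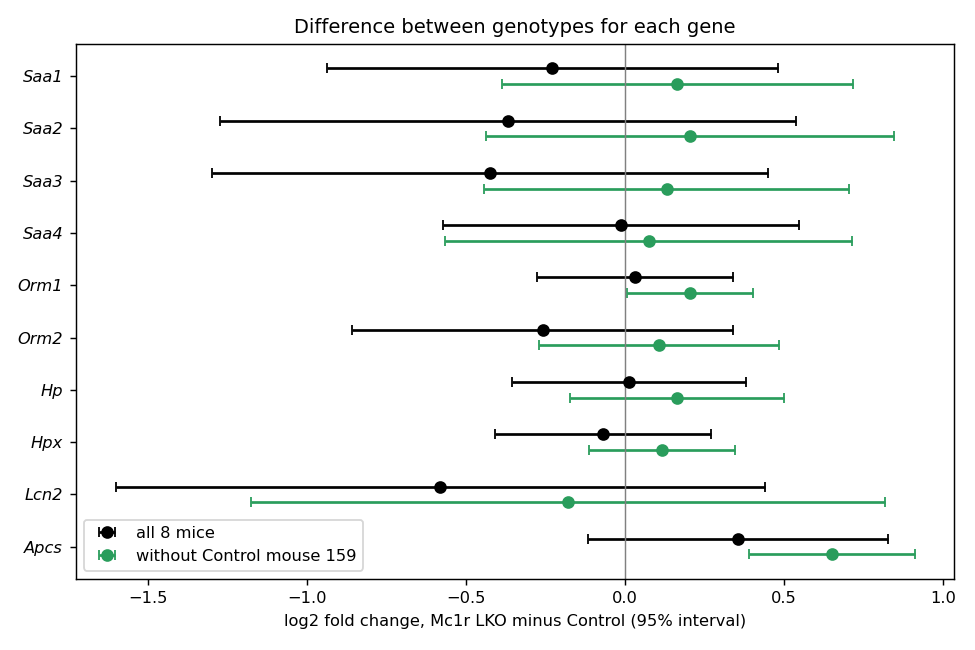
Log2 fold change of each gene (horizontal axis, Mc1r LKO minus Control, with the 95% interval of edgeR's quasi-likelihood fit) with all 8 mice in black and without Control mouse 159 in green. With all mice every interval includes 0. Without mouse 159 the intervals of Apcs (0.39 to 0.91) and Orm1 (0.01 to 0.40) lie above 0.

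The larger pattern was between individual mice. Mouse 159 had the highest level of all 8 mice for 9 of the 10 genes, against 18.1% of all tested genes (2419 genes). The ratio of its level to the mean of the other 3 Controls was 2.99 for Saa3, 2.95 for Saa2, 2.30 for Lcn2, 2.24 for Saa1 and 2.16 for Orm2, and then 1.90 for Apcs, 1.53 for Hpx, 1.49 for Orm1, 1.42 for Hp and 1.23 for Saa4. Lcn2, Orm2 and the serum amyloid A genes other than Saa4 were thus furthest above the other Controls. Expressed as the difference of log2 CPM from the mean over the 8 mice, the median over the 10 genes was 0.71 in mouse 159 and -0.41 and -0.32 in Control mice 154 and 181. The median was 0.16 in Control mouse 193 and between -0.09 and 0.10 in the 4 Mc1r LKO mice. The same median over all tested genes was between 0.00 and 0.01 in every mouse. By this median, Control livers held both the highest and the lowest acute phase levels, and the Mc1r LKO livers were in between.

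**Figure D3:**
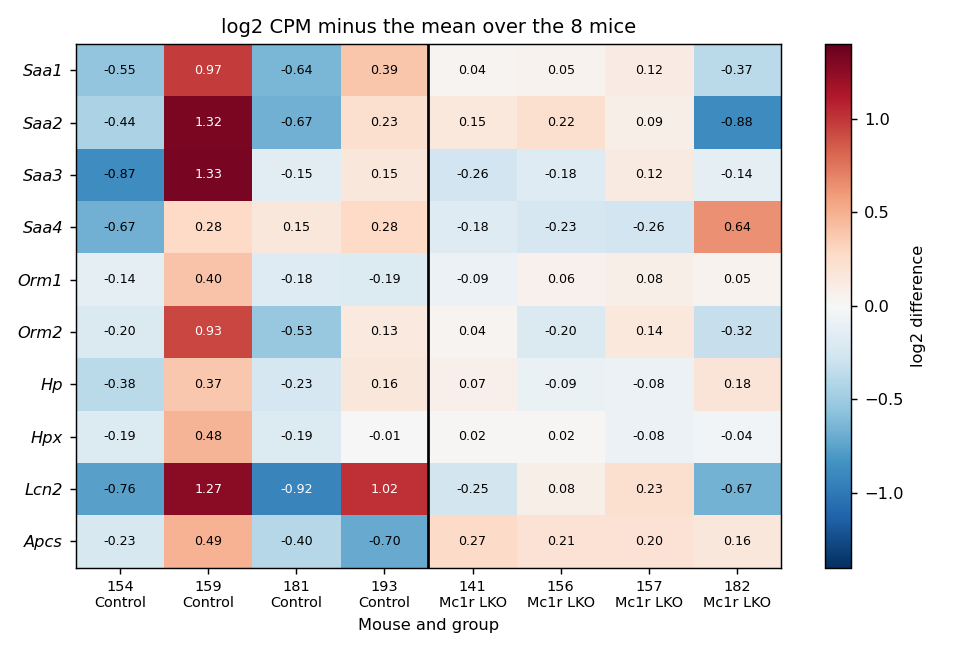
Difference of log2 CPM from the mean over the 8 mice for each gene (rows) and mouse (columns, Control to the left of the line, Mc1r LKO to the right), with red above and blue below the mean. Mouse 159 is above the mean for all 10 genes and mouse 154 for none, and mouse 182 differs within the set, with Saa2 at -0.88 and Saa4 at 0.64.

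Over the 8 mice the levels of the genes were correlated with each other. Pearson's r of log2 CPM was above 0 for 43 of the 45 pairs (median 0.73), and 15 pairs passed an adjusted p-value of 0.05 (exact permutation, Benjamini-Hochberg over the 45 pairs), whereas 1 did so by Spearman's rho. The points of a pair share their libraries. The count depended on single mice. Without mouse 159 the median r was 0.39 and 1 pair passed. Without Control mouse 154 the median r was 0.70 and 2 pairs passed, and without Control mouse 181 it was 0.69 with 8 pairs. Over all the mice left out in turn, between 1 and 22 pairs passed.

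The pair that passed by Pearson's r, by Spearman's rho and without mouse 159 was Saa1 and Lcn2. Their r was 0.96 (exact permutation p = 2.5e-05, adjusted p = 0.0011) and their rho was 1.00 (exact permutation p = 5.0e-05, adjusted p = 0.0022), so the 8 mice had the same order for both genes. Those p-values are the smallest that these permutations can give. Leaving out mice 159 and 181, the farthest from the median of Saa1, r was 0.94, and leaving out mouse 159 it was 0.95 (exact permutation, adjusted p = 0.00893). About the genotype means r was 0.97. Saa1 and Saa2 had r = 0.94 and rho = 0.86 (exact permutation p = 0.00238 and 0.0107, adjusted 0.0214 and 0.0964), and r = 0.83 without mice 159 and 181. Saa1 and Orm2 had r = 0.93 and rho = 0.86 (exact permutation p = 0.00107 and 0.0107, adjusted 0.0195 and 0.0964), and r = 0.78 without the same 2 mice.

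Other pairs differed in how far they rested on the extreme mice. Saa3 and Hpx had r = 0.89 and rho = 0.38 (exact permutation p = 0.0214 and 0.360, adjusted 0.0571 and 0.450), and r = -0.10 without mice 154 and 159. Orm1 was closest to Apcs among the 10 genes by rho, with r = 0.81 and rho = 0.83 (exact permutation p = 0.0154 and 0.0154, adjusted 0.0471 and 0.115), and r = 0.79 without mice 159 and 193. Saa4 was tied to Hp, with r = 0.73 and rho = 0.81 (exact permutation p = 0.0415 and 0.0218, adjusted 0.0897 and 0.140), falling to r = 0.50 without mice 154 and 182. Its r with Saa1, Saa2 and Lcn2 was 0.23, -0.02 and 0.23, and with Saa3 it was 0.52 (rho = 0.62, and r = 0.06 without mice 154 and 182).

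**Figure D4:**
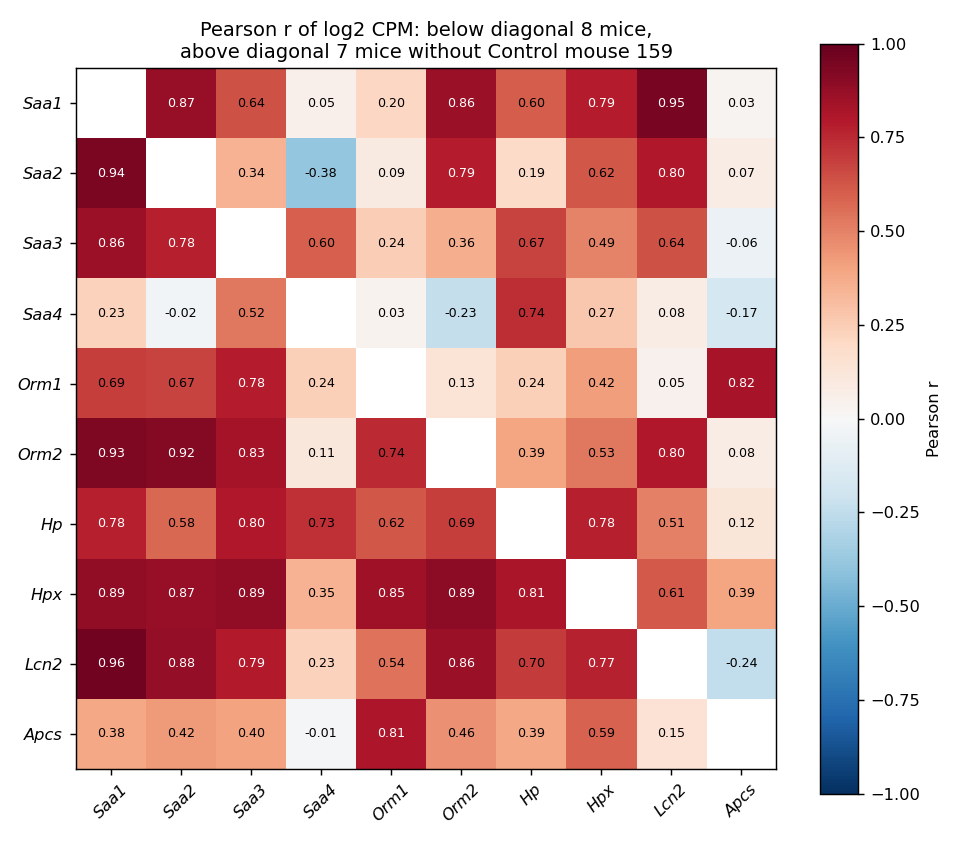
Pearson's r of log2 CPM for each pair of the 10 genes (rows and columns), below the diagonal over 8 mice and above it over 7 mice without Control mouse 159, from blue (-1) to red (1). Saa1 and Lcn2 keep r = 0.95 without mouse 159, while the median over the 45 pairs goes from 0.73 to 0.39.

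Levels can be compared between the genes only per length, here in TPM (counts divided by length and scaled to a sum of 1000000 per mouse) on the exon length of the count tables. Hpx was highest, at 6215 TPM on average (5393 to 8308 over the 8 mice), and above Hp at 5178 TPM (4226 to 6420) in all 8 mice. Orm1 followed at 1732 TPM (1519 to 2203), with no overlap with Hp above or Saa4 below. Then came Saa4 at 273, Apcs at 199, Orm2 at 130.4, Saa1 at 123, Saa2 at 79.7 and Lcn2 at 46.6 TPM, and each of these overlapped the next over the mice. The Saa1 level was above that of Saa2, and the Saa2 level above that of Lcn2, in all 8 mice. Saa3 was lowest, at 5.76 TPM, with no overlap.

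The middle of this order depended on the length used. The exon length of the tables merges every annotated transcript and was 2478 bases for Saa1 and 2518 for Saa2, against 609 and 606 bases for their protein-coding transcripts. With the length of the protein-coding transcript, the average TPM level was 499 for Saa1, 331 for Saa2, 133 for Lcn2 and 27.1 for Saa3, which placed Saa1 above Saa4 and Saa2 above Saa4 on average (in 6 of 8 mice for Saa2). On these converted levels Hpx at 6215 and Hp at 6182 did not differ beyond their spread, with Hpx higher in 5 of 8 mice.

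The upstream part of the pathway was examined from gene lists. Of 8 cytokines that induce the response, only Il1a and Il1b were abundant enough to be tested. Il6, the main inducer, had 0 counts in every Control and 0 to 3 in the Mc1r LKO mice, Tnf had 1 to 15 counts per mouse, and Il22 had 0 in all 8. Il1b, the interleukin 1 beta gene, was at 1.17, 4.74, 1.30 and 2.36 CPM in Controls 154, 159, 181 and 193 and at 0.760, 0.650, 1.58 and 1.23 CPM in Mc1r LKO mice 141, 156, 157 and 182. Mouse 159 was highest here too, and the groups overlapped. The Il1b log2 fold change was -1.11 (SE 0.49, unadjusted p = 0.0461, adjusted p = 0.735 in edgeR), and -0.59 without mouse 159 (unadjusted p = 0.193). The call was also lost without mouse 193, 141, 156 or 182, with log2 fold changes of -0.95 to -1.16.

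Among the 8 receptor genes 1 passed an unadjusted p-value of 0.05, with a higher level in Mc1r LKO mice (background 3.86% of all tested genes in that direction and 2.87% in the other). This was Il6ra, the ligand-binding chain of the interleukin 6 receptor, at 21.5, 24.7, 18.5 and 27.4 CPM in Controls 154, 159, 181 and 193 and at 36.8, 30.0, 29.6 and 52.9 CPM in Mc1r LKO mice 141, 156, 157 and 182. The groups did not overlap, as in 4.16% of all tested genes. The log2 fold change was 0.70 (SE 0.20, unadjusted p = 0.00492, adjusted p = 0.734 in edgeR), and between 0.49 and 0.81 when each mouse was left out. Il6st, the shared signal-transducing chain, was at 132 ± 6.85 CPM in Control and 120 ± 11.5 CPM in Mc1r LKO mice (SD, n = 4 each, edgeR unadjusted p = 0.161).

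Of 8 transcription factor genes, 2 passed the unadjusted threshold, both higher in Mc1r LKO mice, against 3.86% of all tested genes in that direction, and both had groups apart, against 4.16%. Cebpd, a C/EBP factor that is itself an acute phase gene, was at 9.62, 7.34, 9.22 and 8.07 CPM in Controls 154, 159, 181 and 193 and at 16.4, 15.7, 15.4 and 13.2 CPM in Mc1r LKO mice 141, 156, 157 and 182. The groups were well apart, and mouse 159 had the lowest Cebpd level of all 8 mice while it had the highest levels of 9 acute phase genes. The log2 fold change was 0.82 (SE 0.13, interval 0.53 to 1.10, unadjusted p = 7.3e-05, adjusted p = 0.490 in edgeR), and between 0.76 and 0.88 when each mouse was left out. Cebpb was at 94.9, 93.0, 99.3 and 52.4 CPM in the Controls and at 107, 169, 101 and 142 CPM in the Mc1r LKO mice. Its groups were apart by a narrow margin, 99.3 against 101 CPM. The Cebpb log2 fold change was 0.61 (SE 0.22, unadjusted p = 0.0189, adjusted p = 0.734 in edgeR), and 0.46 without mouse 156 (unadjusted p = 0.0649), which ended the call. Stat3 (log2 fold change -0.03), Cebpa (0.02), Rela (0.05) and Nfkb1 (-0.10) had unadjusted p-values of 0.869, 0.844, 0.693 and 0.417 in edgeR.

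Among the 5 tested feedback inhibitors 1 passed the unadjusted threshold, with a higher level in Mc1r LKO mice, against 3.86% of all tested genes in that direction. This was Nfkbia, which encodes the NF-kB inhibitor I-kappa-B-alpha. It was at 34.0, 33.0, 38.2 and 35.4 CPM in Controls 154, 159, 181 and 193 and at 42.2, 42.3, 45.9 and 51.4 CPM in Mc1r LKO mice 141, 156, 157 and 182. The groups did not overlap, as in 4.16% of all tested genes. The log2 fold change was 0.37 (SE 0.09, unadjusted p = 0.00258, adjusted p = 0.734 in edgeR), and between 0.31 and 0.41 when each mouse was left out. Socs3, the feedback inhibitor that STAT3 induces, is given because its values were seen to single out mice. It was at 5.16, 24.5, 3.86 and 4.24 CPM in the Controls and at 5.05, 5.85, 5.33 and 14.8 CPM in the Mc1r LKO mice, so that mice 159 and 182 were high and the others alike, and the log2 fold change was -0.23 (edgeR unadjusted p = 0.715), or 0.83 without mouse 159 (edgeR unadjusted p = 0.0646). For Il6ra, Cebpb, Cebpd and Nfkbia the two-sided exact permutation p was 0.0286, the smallest that 4 against 4 mice allow. Groups that do not overlap, as in 4.16% of all tested genes, always give this value, so it adds nothing to the separation already described.

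**Figure D5:**
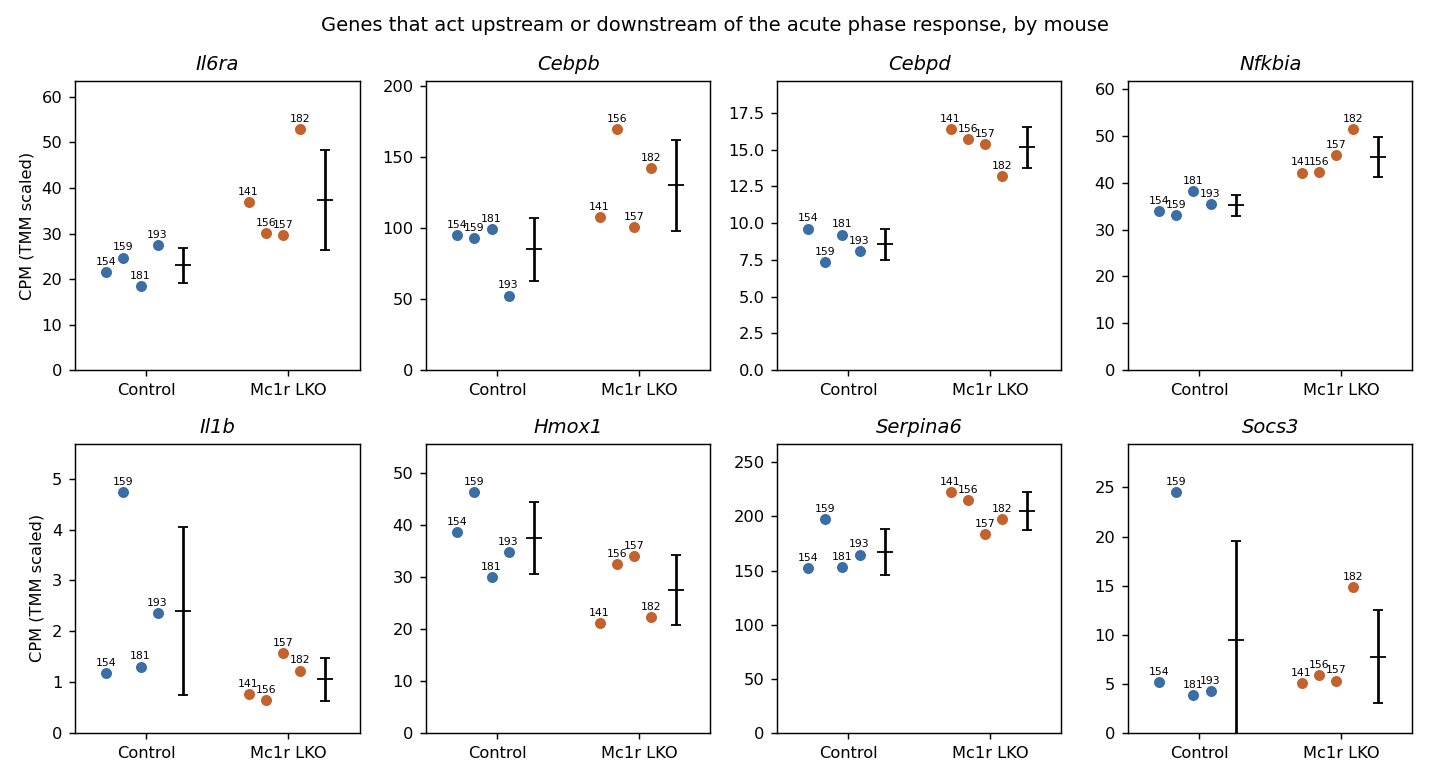
Level (vertical axis, TMM-scaled CPM, from 0) of 8 pathway genes in 4 Control and 4 Mc1r LKO mice, with mice labeled by number and the mean and SD of each group as black bars (the lower bar of Socs3 in Control ends at the axis). Il6ra, Cebpb, Cebpd and Nfkbia do not overlap between the groups, while Il1b and Socs3 are highest in mouse 159.

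The other positive acute phase genes, 18 in the list and all tested, gave no call either. None passed the unadjusted threshold, 11 had positive and 7 negative log2 fold changes, and the median was 0.05, beside -0.01 over all tested genes (0.13 without mouse 159). The smallest p-values were those of Serpina3m, a serine protease inhibitor at 204 ± 26.9 CPM in Control and 268 ± 87.9 CPM in Mc1r LKO mice (log2 fold change 0.39, SE 0.20, edgeR unadjusted p = 0.076), and of complement C4b, at 1324 ± 126 and 1159 ± 120 CPM (log2 fold change -0.19, SE 0.11, edgeR unadjusted p = 0.110). The groups overlapped for both genes. Serpina3m was at 398 CPM in mouse 182, against 206 to 241 CPM in the other Mc1r LKO mice, and its log2 fold change was 0.14 without mouse 182 and 0.50 without mouse 156 (edgeR unadjusted p = 0.256 and 0.0353). That of C4b was -0.11 without mouse 159 and -0.25 without mouse 182 (edgeR unadjusted p = 0.314 and 0.0351).

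All 9 negative acute phase genes had positive log2 fold changes, as did 47.9% of all tested genes, with a median of 0.13 (0.25 without mouse 159). Without Mc1r LKO mouse 182 Fetub was at -0.019, and the others were between 0.0092 (Alb) and 0.32 (Serpina6). Of these 9, 1 gene passed the unadjusted threshold, against 3.86% of all tested genes in that direction. Serpina6, which encodes corticosteroid-binding globulin, was at 153, 198, 153 and 165 CPM in Controls 154, 159, 181 and 193 and at 223, 215, 184 and 198 CPM in Mc1r LKO mice 141, 156, 157 and 182. Mouse 159 overlapped the Mc1r LKO mice and the other Controls lay below them. The log2 fold change was 0.29 (SE 0.11, unadjusted p = 0.0225, adjusted p = 0.734 in edgeR). Without mouse 159 the log2 fold change of Serpina6 was 0.39 (unadjusted p = 0.00304) and 2 of the 9 genes passed, against 4.69% of all tested genes in that direction. The Serpina6 call was lost without mouse 154, 181, 141 or 156, with log2 fold changes of 0.26 to 0.27 and edgeR unadjusted p-values up to 0.062, and under scaling by library size alone (0.25). Alb, the albumin gene, was at 57841 ± 6265 CPM in Control and 62217 ± 8506 CPM in Mc1r LKO mice (edgeR unadjusted p = 0.481).

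Of 11 receptor and heme clearance genes, some of which act after haptoglobin, hemopexin and lipocalin 2 have bound their ligands, 10 were tested. Among these 10, 1 passed the unadjusted threshold, with a lower level in Mc1r LKO mice. The background was 2.87% of all tested genes in that direction and 3.86% in the other. Hmox1, the heme oxygenase that degrades heme, was at 38.7, 46.4, 30.1 and 34.7 CPM in Controls 154, 159, 181 and 193 and at 21.2, 32.4, 34.0 and 22.2 CPM in Mc1r LKO mice 141, 156, 157 and 182. The groups overlapped, with the highest value again in mouse 159. The log2 fold change was -0.44 (SE 0.18, unadjusted p = 0.0363, adjusted p = 0.734 in edgeR), and -0.32 without mouse 159 (unadjusted p = 0.112), and the call was also lost without mouse 154, 141 or 182. Of the 10, 1 had groups apart, against 4.16% of all tested genes. This was Hmox2, another heme oxygenase gene, at 42.7 ± 2.26 CPM in Control and 47.8 ± 1.64 CPM in Mc1r LKO mice (log2 fold change 0.16, edgeR unadjusted p = 0.0601). Cd163, the macrophage receptor of haptoglobin-hemoglobin complexes, was at 13.7 ± 5.85 CPM in Control and 10.4 ± 1.96 CPM in Mc1r LKO mice (edgeR unadjusted p = 0.214). Lrp1, the hemopexin receptor, was at 571 ± 25.9 and 481 ± 79.7 CPM (edgeR unadjusted p = 0.0676).

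Markers of other cells were read from the same livers, where fewer cells of a type and less RNA per cell cannot be told apart. The 8 hepatocyte markers summed to 70097 to 81571 CPM of the total count in Control and 71044 to 87366 CPM in Mc1r LKO mice. Of these 8, 6 had positive and 2 negative log2 fold changes (median 0.13). The cytochrome gene Cyp3a11 alone passed the unadjusted threshold (log2 fold change -0.61), against 2.87% of all tested genes in that direction. It did not pass without mouse 181 (-0.55) or 157 (-0.50). The 9 macrophage markers summed to 303 to 727 CPM in Control and 197 to 487 CPM in Mc1r LKO mice, with the highest sum in mouse 159. All 9 had negative log2 fold changes (median -0.43, and -0.17 without mouse 159), as did 6988 of the 13400 tested genes. Without mouse 159 Marco (0.61) and Timd4 (0.21) were above 0 and the other macrophage markers stayed below 0. Of the 9, 1 passed the unadjusted threshold, against 2.87% of all tested genes in that direction. This was Csf1r, the receptor of the macrophage growth factor (log2 fold change -0.77). That call was lost without mouse 159 (-0.45) and without mouse 193, 141, 157 or 182 (-0.59 to -0.83). The high macrophage sum moved with the acute phase levels in mouse 159, and its part in them was not tested. Of the 3 tested neutrophil markers 1, Csf3r, passed that threshold (log2 fold change -0.77), against 2.87% of all tested genes in that direction. Its groups did not overlap, as in 4.16% of all tested genes. The Csf3r call was lost without mouse 159 (-0.31) and without mouse 141, 156, 157 or 182 (-0.68 to -0.85). The other 2 went the other way, S100a8 at 0.53 and S100a9 at 0.39, and the median of the 3 was 0.39. The 12 neutrophil markers summed to 6.21 to 14.6 CPM in Control and 5.07 to 10.9 CPM in Mc1r LKO mice, again highest in mouse 159. Red cell, adipocyte and bile duct markers summed to 182 to 269, 7.55 to 39.5 and 27.0 to 259.9 CPM over the 8 mice, with no gene past the unadjusted threshold.

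By Pearson's r of log2 CPM over the 8 mice among all tested genes, the genes most like each member were mostly outside the set, and with so many genes and 8 mice high values are to be found for any gene. Lcn2 and Saa1 were among the 3 nearest genes of each other (r = 0.96). Saa1 was next to Lair1 (0.97) and Ifi208 (0.96), and Lcn2 to 9130221H12Rik (0.97) and the Fc receptor gene Fcgr1 (0.96). Saa2 was nearest to the class II gene H2-Ab1, Kif4 and Ifi30 (all 0.98), and Saa3 to Gm11131 (0.99), the immunoproteasome subunit gene Psmb8 (0.97) and Astn2 (0.97). Orm2 was nearest to Alpk1 (0.99), Ripk3 (0.97) and Meiob (0.96), and Hpx to the class I gene H2-D1, Rad52 and Gm16174 (all 0.97). The constitutive Saa4 was nearest to Znhit3 (0.98), the alcohol dehydrogenase gene Adh4 (0.97) and the coagulation factor gene F11 (0.97). Orm1 was nearest to Inafm1 (0.97), BC025446 (0.95) and Kin (0.95), Hp to Tmem200b (0.95), Exd1 (0.94) and Pkdcc (0.93), and Apcs to H2afj (0.98), Gm4332 (0.97) and Snrpd2 (0.97). None of these neighbors passed an unadjusted p-value of 0.05 between the genotypes.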

How the data were processed

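RNA was sequenced from the liver of 8 mice, with 1 library each. Per the labels and the study's methods, the authors prepared stranded mRNA libraries, trimmed reads with Trim Galore 0.6.6, aligned them with STAR 2.7.6a and counted read pairs by strand with featureCounts of Subread 2.0.1 on an Ensembl annotation of GRCm38. The deposited values are unnormalized counts per gene, with the merged exon length beside them. Symbols matched 55141 of 55487 identifiers, and genes without one held at most 0.0408% of the counts of a mouse.

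From these counts, genes were filtered with filterByExpr (minimum count 10, minimum total 15), scaled by TMM and tested with the quasi-likelihood test of edgeR 4.0.16 in R 4.3.3 over 13400 genes. The filter and TMM are those of the study, which does not name its test. The script was tested on simulated data. CPM are TMM-scaled, except summed marker levels and genes not tested, which use the total count. Log2 CPM have a prior count of 2. Alternatives were DESeq2 1.42.0, limma 3.58.1 with voom, sva 3.50.0, other scaling and filters, and leaving out each mouse. The mice of a group are separate animals by their numbers, and the labels give no batch.

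The genes named are the 10 members, from each pathway list every gene with an unadjusted p-value under 0.05 or else the 2 with the smallest p-values, and the 3 genes most like each member. Further genes are given for their role or, like Socs3, were chosen after their values were seen. The members, lists and rules were chosen with earlier results of these data known. The length of the protein-coding transcript was added as an alternative after seeing the data. The precision is set by 4 mice per group and total counts of 10773151 to 24763375, and count floors cover counting error only.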

Additional observations from a re-analysis of the deposited data

Results flagged for a closer look

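In 4 of the 20 groups of 4 values formed by the 10 acute phase genes and the 2 genotypes, 1 mouse lay further from the others than Dixon's 95% limit allows, where chance gives about 1 in 20. Orm1 was at 738 CPM in Control mouse 159, against 490.0 to 507 CPM in the other Controls. Saa4 was at 146 CPM in Control mouse 154, against 258 to 281 CPM in the other Controls, and at 362 CPM in Mc1r LKO mouse 182, against 193 to 204 CPM in the other Mc1r LKO mice. Saa2 was at 40.8 CPM in Mc1r LKO mouse 182, against 80.0 to 87.9 CPM. With the named pathway genes added, 6 of 38 groups had a mouse past the limit, where chance gives about 1.9. Among the pathway genes, C4b was at 1513 CPM in Control mouse 159, against 1247 to 1277 CPM, and Cebpb was at 52.4 CPM in Control mouse 193, against 93.0 to 99.3 CPM. Although mouse 159 had the highest level of 9 of the 10 genes, it passed this limit for Orm1 alone among them, since the other Controls also differed from each other.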

How the results depend on the processing

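The count of members past an adjusted p-value of 0.05 was 0 under all 8 alternatives that kept every mouse and in all 8 fits that left out a mouse. The count past the unadjusted threshold with the fold limit was 0 throughout, except for 1 without Control mouse 159 (range over the mice left out 0 to 1). The median log2 fold change, -0.15 in the main fit, was between -0.19 and -0.06 under the alternatives that kept every mouse. Over the mice left out it was between -0.28 and 0.15, and its sign changed only without Control mouse 159. Of 160 refitted log2 fold changes of the 10 genes, 139 kept direction and side of the unadjusted threshold, 19 changed sign and 2 passed it, Apcs and Orm1, both without Control mouse 159. Scaling by library size alone gave -0.0094 for Orm1 and -0.035 for Hp. Over the mice left out, the log2 fold change ranged from -0.43 to 0.17 for Saa1, -0.59 to 0.20 for Saa2, -0.68 to 0.13 for Saa3, -0.28 to 0.086 for Saa4, -0.021 to 0.21 for Orm1, -0.43 to 0.11 for Orm2, -0.090 to 0.16 for Hp, -0.14 to 0.12 for Hpx, -0.85 to -0.18 for Lcn2 and 0.21 to 0.65 for Apcs. Pairs of genes correlated at an adjusted p-value under 0.05 numbered 15 with all mice and between 1 and 22 when 1 mouse was left out, with 1 when Control mouse 159 was dropped, 2 for Control mouse 154, 8 for Control mouse 181 and 9 for Mc1r LKO mouse 157. Of 144 refitted values of the named pathway genes, 17 no longer passed the unadjusted threshold, 5 came to pass it and 0 changed sign. Apart from the mouse left out, the cause of these changes was not tested. No paired analysis was possible because the groups share no mouse numbers. Counts limit Il6, Tnf and the other genes not tested, not the 10 members, which had at least 58 counts in every mouse.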
